A study of Mus musculus with 6 samples.

Results

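The Notch genes examined here were 10 of the 22564 features in the deposited expression table, taken by name. They were the receptors Notch1, Notch2 and Notch3, the ligands Dll1, Dll4, Jag1 and Jag2, and the target genes Hes1, Hey1 and Hey2. They were measured in foreguts microdissected from 6 mouse embryos on a mixed strain background, with 1 RNA library per embryo. Of these, 3 embryos were Gli2-/-;Gli3-/- mutants (called mutants 1, 2 and 3, with 19, 22 and 21 somites) and 3 were Gli2+/-;Gli3+/- controls (controls 1, 2 and 3, with 19, 24 and 21 somites). Both groups therefore carry mutant Gli2 and Gli3 alleles, and no wild-type embryo was compared. Gli2 and Gli3 encode transcription factors through which Hedgehog (HH) ligands act on gene expression. The comparison asks how the RNA of the Notch genes differed when both copies of each were mutant rather than 1 copy.

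Notch signaling passes between touching cells. Delta-like and Jagged ligands on one cell bind a Notch receptor on the next, the receptor is cleaved, and its intracellular part enters the nucleus and joins the DNA-binding protein Rbpj to switch on target genes. The best known targets are the Hes and Hey genes, which encode transcriptional repressors. In the early embryo the pathway is known for arterial identity in endothelium, for somite formation, for neurogenesis and, in the foregut, for endocrine cell choice in the pancreas and bile duct formation in the liver.

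The promoters of 2 of the 10 genes are shown because Hey2 is the target with the largest mean fold difference between genotypes and Jag1 is the gene that differed most between embryos. RefSeq start sites (build GRCm38.p6, mm10) were matched for 8 of the 10 genes in 9 windows of 250 bases upstream. The targets Hes1 and Hey1 had no matched window, so their promoters were not searched for any motif. A perfect Rbpj motif (GTGGGAA, on either strand) was in 1 of the 9 windows, that of Hey2, and in 5.42% of all 32851 windows. In the Hey2 sequence below (chromosome 10, chr10:30842802-30843033, minus strand, 232 bases that end where the annotated gene begins) the capitals mark this motif, which starts 207 bases before the RefSeq start.
Hey2: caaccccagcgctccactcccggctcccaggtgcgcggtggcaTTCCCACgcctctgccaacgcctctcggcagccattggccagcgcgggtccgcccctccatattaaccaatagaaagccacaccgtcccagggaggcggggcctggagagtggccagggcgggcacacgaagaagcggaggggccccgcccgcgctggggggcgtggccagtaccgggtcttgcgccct
Hes and Hey proteins bind class C sites, for which CACGCG was searched on either strand. It was in 4 of the 9 windows (Jag1, Dll4, Notch2 and 1 of the pair of Dll1 windows) and in 7.62% of all windows. The Jag1 window (chromosome 2, chr2:137116645-137116770, minus strand, 126 bases) held it at 2 positions, 249 and 171 bases before the RefSeq start, marked by capitals.
Jag1: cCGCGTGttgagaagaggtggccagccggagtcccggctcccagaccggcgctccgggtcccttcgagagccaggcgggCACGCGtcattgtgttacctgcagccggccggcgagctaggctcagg
A Gli motif (TGGGTGGTC, on either strand) was in 0 of the 9 windows and in 0.225% of all windows. These matches describe the letters in these windows and do not show binding.

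On build mm10 (GENCODE vM21), the receptors lie at chromosome 2, 26457903 to 26516663 (Notch1), chromosome 3, 98013527 to 98150361 (Notch2) and chromosome 17, 32120820 to 32166852 (Notch3). The ligands lie at chromosome 17, 15367354 to 15376872 (Dll1), chromosome 2, 119325784 to 119335962 (Dll4), chromosome 2, 137081456 to 137116644 (Jag1) and chromosome 12, 112907819 to 112929776 (Jag2). The targets lie at chromosome 16, 30064384 to 30067796 (Hes1), chromosome 3, 8663359 to 8667256 (Hey1) and chromosome 10, 30832359 to 30842801 (Hey2). All are protein-coding genes, and their TPM values are for whole genes.

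Expression was given as TPM, the share of a library corrected for gene length, so levels can be compared between genes. TPM keeps no read depth, and the precision of every value rests on the spread between embryos. Gli2 itself stood at 18, 37.0 and 27.5 TPM in mutants 1, 2 and 3, against 16.9, 20.95 and 25.6 TPM in controls 1, 2 and 3. Gli3 stood at 53.7, 97.4 and 73.8 TPM in mutants 1, 2 and 3, against 79.2, 129 and 109 TPM in controls 1, 2 and 3. Gli2 overlapped. Gli3 overlapped too but was lower in each mutant than in the control of its number (-0.51 on the log2 scale, limma adjusted p = 0.999, or 0.269 with the replicate block, where the unadjusted p was 0.00308). TPM over a whole gene does not show whether the altered part of a transcript is missing, so these values do not check the labels. The HH target Gli1 stood at 4.49, 2.30 and 1.44 TPM in mutants 1, 2 and 3, against 37.8, 21.6 and 28.6 TPM in controls 1, 2 and 3. Every mutant lay far below every control. Features named by a database accession took 23.5% to 36.1% of the TPM in mutants and 34.6% to 43.9% in controls. Both 19-somite libraries, those numbered 1, stood apart from the other 4 on the main axis of variation (45.3% of the variance). Gut endoderm markers (6 of 6 above 0 in every library) summed to 567, 660 and 824 TPM in mutants 1, 2 and 3, against 658, 910 and 558 TPM in controls 1, 2 and 3. Most of each sum was 1 gene, Cldn6 (398, 500 and 598 TPM in mutants 1, 2 and 3, against 471, 725 and 411 TPM in controls 1, 2 and 3).

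None of the 10 genes was called different between genotypes. A call needed a limma adjusted p no larger than 0.1 together with a change of 1 or more on the log2 scale, in either direction. Over all 14606 genes tested 6 were called, or 0.0411% (0.0137% higher and 0.0274% lower in mutants), so a count of 0 among 10 genes is not a result about the Notch genes. The paper, with a count model, reports far more differing transcripts from these embryos, Foxf1 and Osr1 among them. Neither was called here (limma adjusted p = 0.523 and 0.257), so few calls in this fit do not mean few differences. Before adjustment, 1 of the 10 (Hey1, higher) had a limma p of at most 0.05, against 4.09% of all genes (3.07% higher and 1.01% lower). With the replicate number as a block it was 3 of 10 (Hey1 and Hey2 higher, Jag1 lower), against 9.79% of all genes, and again 0 of 10 were called. The 10 genes had a median log2 fold change of 0.28 on the log2(TPM + 1) scale, with 6 above 0, and all genes tested had a median of 0.11 with 69.8% above 0. In 2 of the 10 (Dll1 and Hey1) all mutants lay above all controls in TPM, against 6.68% of all genes. Neither gene stayed apart under every scaling, as given for each below. In 0 of the 10 did all mutants lie below all controls, against 1.68%.

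**Figure D1:**
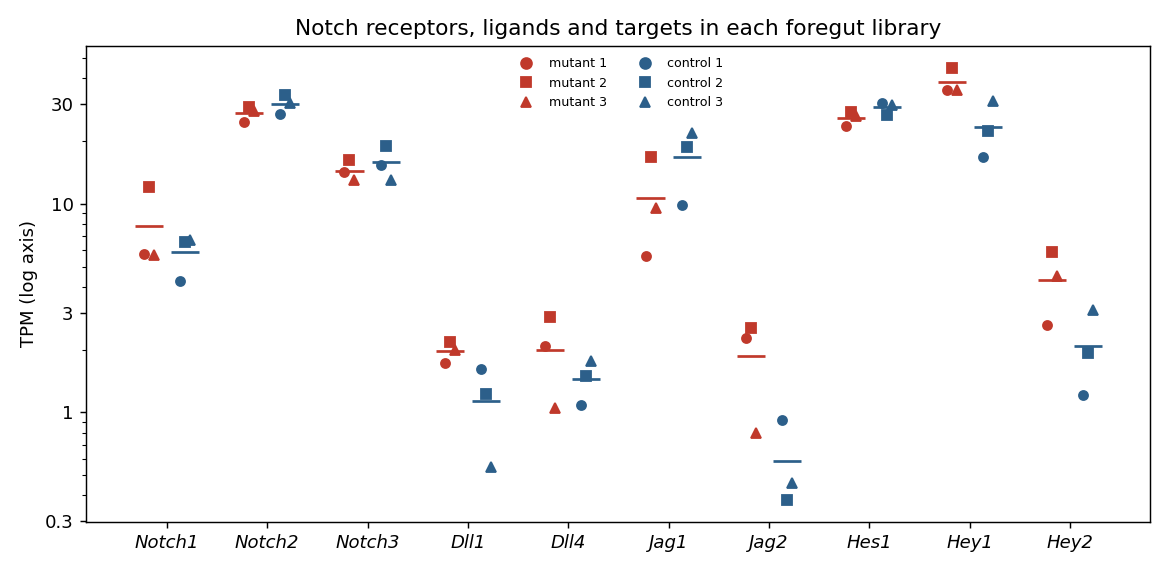
TPM of each gene (log axis) in each library, with mutants in red at the left and controls in blue at the right of each gene. Symbols mark the library number and bars the group mean. On the TPM scale shown, the groups separate only for Dll1 and Hey1.

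The receptors bind the ligands and release the signal that reaches the nucleus. Notch2, a receptor needed for bile ducts and kidney, had 24.7, 29.3 and 27.7 TPM in mutants 1, 2 and 3, against 27.0, 33.2 and 30.3 TPM in controls 1, 2 and 3. Its values overlapped and the log2 fold change was -0.14 ± 0.19 (SE, limma adjusted p = 0.999). The 95% interval of -0.59 to 0.30 leaves no room for a change of the size the call requires. Notch3, the receptor known from vascular smooth muscle and pericytes, had 14.2, 16.2 and 13.0 TPM in mutants 1, 2 and 3, against 15.4, 19.0 and 13.0 TPM in controls 1, 2 and 3. It too overlapped, with a log2 fold change of -0.11 ± 0.23 and an interval of -0.63 to 0.41. Its direction turned without control 2 (0.026). Markers of smooth muscle and pericytes stood beside this at summed levels of 180, 216 and 81.4 TPM in mutants 1, 2 and 3, against 78.0, 73.8 and 82.3 TPM in controls 1, 2 and 3. The largest part of each sum was Acta2, at 96.6, 122.5 and 34.0 TPM in mutants 1, 2 and 3, against 49.8, 38.8 and 40.6 TPM in controls 1, 2 and 3. Of the 6 markers 2, Pdgfrb and Tagln, were higher in all mutants than in any control, beside 6.68% of all genes. Acta2 and the rest overlapped.

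Notch1, the receptor that acts in arteries and in the earliest blood stem cells, was lower in level than Notch2 and Notch3 in every library. It had 5.76, 12.02 and 5.69 TPM in mutants 1, 2 and 3, against 4.28, 6.58 and 6.69 TPM in controls 1, 2 and 3. Mutant 2 alone stood out, and mutants 1 and 3 lay within the control range. The log2 fold change was 0.31 ± 0.34 (SE, limma adjusted p = 0.999), and it was -0.0057 without mutant 2. In mutant 2 the 8 neural tube markers also summed to 59.3 TPM, against 9.81 to 18.5 TPM in the other 5 libraries. The 10 endothelial markers were highest there as well (289 TPM, against 110 to 203 TPM in the others). The part of either in the Notch1 value was not tested. In a whole tissue, more cells of a type and more RNA per cell cannot be told apart.

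Shares within a family are not moved by how a library is scaled. Notch1 made up 12.2%, 19.8% and 11.7% of the summed TPM of the 4 receptors (Notch4, an endothelial receptor, included) in mutants 1, 2 and 3, against 8.80%, 10.8% and 12.8% in controls 1, 2 and 3. These shares overlapped (14.6% ± 4.5 in mutants and 10.8% ± 2.0 in controls, SD, n = 3 each, two-sided exact permutation p = 0.3). With 3 against 3 the exact test cannot go below p = 0.1. Notch2 held most of the receptor RNA in every library but mutant 2, with 48.2% to 56.9% in mutants and 54.2% to 57.9% in controls. Notch4, singled out after its values were seen, was the smallest share and the only one that did not overlap, at 5.20%, 5.38% and 4.80% in mutants 1, 2 and 3, against 4.03%, 3.92% and 4.49% in controls 1, 2 and 3 (two-sided exact permutation p = 0.1). The sum of the 4 receptors was 47.1, 60.7 and 48.8 TPM in mutants 1, 2 and 3, against 48.6, 61.2 and 52.3 TPM in controls 1, 2 and 3, so the receptor total differed by less than the embryos did among themselves. Exons of Notch1 overlap 0610009E02Rik (1068 bases) and Gm13568 (414 bases), and those of Notch3 overlap Gm17276 (488 bases), all on the opposite strand. Notch2 shares 541 bases with Gm42820 on its own strand, and reads there cannot be assigned with certainty.

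Of the ligands, Jag1 was by far the most abundant, and its level varied more between embryos than that of any other of the 10 genes (SD of 0.68 in log2(TPM + 1) over the 6 libraries). Jag1 is the ligand whose loss of 1 copy causes Alagille syndrome of the bile ducts and heart in people. It had 5.62, 16.8 and 9.57 TPM in mutants 1, 2 and 3, against 9.91, 18.7 and 21.8 TPM in controls 1, 2 and 3. Each mutant was below the control of its own number, yet mutant 2 was above control 1 and the groups overlapped. The log2 fold change was -0.66 ± 0.42 (SE, limma adjusted p = 0.999, or 0.451 with the replicate block). Its 95% interval ran from -1.64 to 0.32, so a fall of the size the call requires is within it. The log2 fold change was -0.31 without mutant 1 and -1.02 without mutant 2.

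The other 3 ligands stayed below 3 TPM in every library. Jag2, a ligand known from limb, palate and thymus development, had 2.27, 2.54 and 0.80 TPM in mutants 1, 2 and 3, against 0.92, 0.38 and 0.46 TPM in controls 1, 2 and 3. Mutants 1 and 2 were above every control and mutant 3 was below control 1. The mean was 3.19 times as high in mutants and the log2 fold change was 0.81 ± 0.37 (SE, limma adjusted p = 0.999). Dll1, the ligand known from presomitic mesoderm and neural progenitors, had 1.73, 2.17 and 2.00 TPM in mutants 1, 2 and 3, against 1.62, 1.23 and 0.55 TPM in controls 1, 2 and 3. All mutants were above all controls in TPM, by a gap of no more than the spread among them. Without accession-named features (23.5% of the TPM in mutant 1 and 34.6% in control 1), mutant 1 fell below control 1 and the groups overlapped. The log2 fold change of Dll1 was 0.51 ± 0.32 (SE, limma adjusted p = 0.999). Dll1 values are uncertain, because 867 of its exonic bases overlap the opposite-strand long noncoding RNA A930024N18Rik and this library kit loses strand.

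Markers of somites and presomitic mesoderm (7 genes) were, like Dll1, higher in all mutants by their sum, which was 74.5, 61.1 and 37.6 TPM in mutants 1, 2 and 3, against 11.7, 16.7 and 26.3 TPM in controls 1, 2 and 3. Within a genotype they did not rank as Dll1 did, since mutant 1 had the highest sum and the lowest Dll1 of the mutants and the order in controls was reversed. Most of the sum was Meox1, a factor of formed somites (61.7, 50.7 and 33.4 TPM in mutants, against 8.37, 11.0 and 23.7 TPM in controls). Only 1 of the 7, Meox1, was higher in all mutants than in any control, beside 6.68% of all genes. Tcf15, Pax3, Uncx and the presomitic genes overlapped. The presomitic genes Mesp2, Tbx6 and Ripply1 were at or below 0.52 TPM in all 6 libraries. The part of these cells in the Dll1 value was not tested. Dll4, the ligand of arterial endothelium and endothelial tip cells, had 2.07, 2.88 and 1.05 TPM in mutants 1, 2 and 3, against 1.08, 1.49 and 1.76 TPM in controls 1, 2 and 3. Mutant 3 was the lowest library of all and mutant 2 the highest, so the groups overlapped fully (log2 fold change 0.26 ± 0.34, limma adjusted p = 0.999). It was 0.048 without mutant 2 and 0.51 without mutant 3. A stretch of 214 exonic bases overlaps Gm14207, transcribed from the other strand.

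The make-up of the ligand pool was compared as a share. Jag1 and Jag2 together made up 67.5%, 79.3% and 77.3% of the TPM of the 4 ligands in mutants 1, 2 and 3, against 80.0%, 87.5% and 90.6% in controls 1, 2 and 3. The mutants were all below the controls, at 74.7% ± 6.3 in mutants and 86.1% ± 5.4 in controls (SD, n = 3 each), although mutant 2 and control 1 were less than 1 percentage point apart. The exact permutation p was 0.1, the lowest this design allows. The mean difference was -11.4 percentage points and ran from -14.4 to -7.79 when each library was left out in turn. This pool joins 2 genes that went opposite ways by mean. Jag1 alone averaged 62.7% of the ligand TPM in mutants and 82.6% in controls, lower in all mutants (exact permutation p = 0.1). Jag2 averaged 11.9% in mutants and 3.47% in controls and overlapped (exact permutation p = 0.2). The sum of the 4 ligands was 11.7, 24.3 and 13.4 TPM in mutants 1, 2 and 3, against 13.5, 21.8 and 24.5 TPM in controls 1, 2 and 3, and overlapped.

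**Figure D2:**
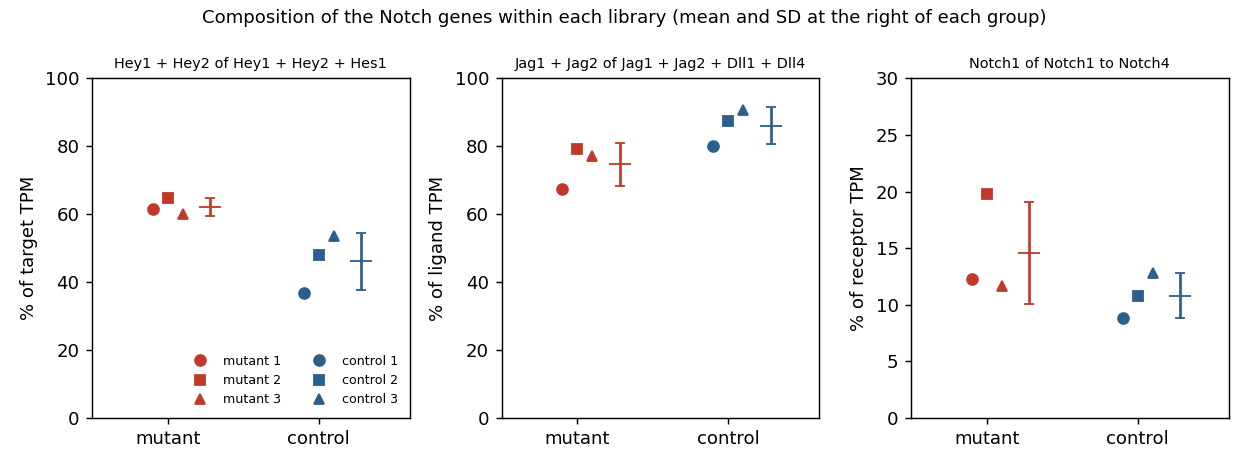
Share of the Hey genes in the target TPM, of the Jagged genes in the ligand TPM and of Notch1 in the receptor TPM (%), for each library, with mutants at the left and the mean and SD beside each group (n = 3). The Hey share is above 59% in all mutants and below 54% in all controls, the Jagged share separates by less than 1 percentage point, and the Notch1 share overlaps.

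Of the targets, Hes1 had similar means in both genotypes, and Hey1 and Hey2 had higher means in mutants. Hes1, a repressor that many cell types express and that holds progenitors undifferentiated, had 23.7, 27.5 and 26.4 TPM in mutants 1, 2 and 3, against 30.6, 26.5 and 29.8 TPM in controls 1, 2 and 3. It varied least of the 10 genes (SD of 0.13 in log2(TPM + 1)), and its log2 fold change was -0.16 ± 0.19 with a 95% interval of -0.59 to 0.27 (limma adjusted p = 0.999). Hey1, a repressor of the arterial and endocardial lineages, had 35.1, 45.0 and 35.0 TPM in mutants 1, 2 and 3, against 16.7, 22.4 and 31.2 TPM in controls 1, 2 and 3. All mutants were above all controls in TPM, with mutant 3 only a little above control 3. Without accession-named features (23.5% of the TPM in mutant 1 and 36.6% in control 3), mutant 1 fell below control 3 and the groups overlapped. The mean was 38.4 ± 5.8 TPM in mutants and 23.4 ± 7.3 TPM in controls (SD, n = 3 each), 1.64 times as high.

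The log2 fold change of Hey1 was 0.72 ± 0.26 with a 95% interval of 0.11 to 1.33. It was short of both limits of a call (limma adjusted p = 0.999, or 0.374 with the replicate block). Scaling mattered here. With median-of-ratios scaling, quantile normalization or rescaling without accession-named features, 0 of the 10 genes had an unadjusted p of at most 0.05, and Hey1 also missed that limit without control 1, control 2, mutant 2 or both libraries numbered 1. Its log2 fold change ran from 0.51 to 0.94 over the 13 alternatives that can move it. Hey2, the relative of Hey1 known from the aorta and the ventricles of the heart, had 2.63, 5.86 and 4.49 TPM in mutants 1, 2 and 3, against 1.21, 1.92 and 3.10 TPM in controls 1, 2 and 3. Only mutant 1 fell within the control range. The mean was 2.08 times as high in mutants and the log2 fold change was 0.79 ± 0.36 (SE, limma adjusted p = 0.999, or 0.470 with the replicate block).

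**Figure D3:**
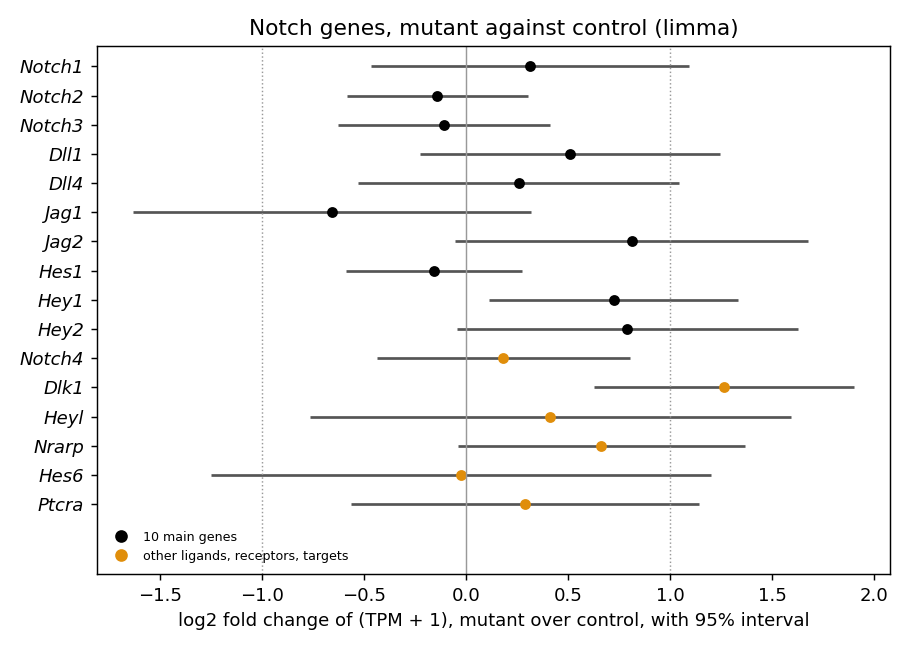
Log2 fold change of TPM + 1, mutant over control, with its 95% interval from limma, for the 10 genes (black) and 6 other ligands, receptors and response genes (orange). Dotted lines mark the fold limit of 1 in either direction. The intervals of Hey1 and Dlk1 alone exclude 0, before any adjustment for the number of genes.

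The balance of the targets was also compared within each library. Hey1 and Hey2 made up 61.4%, 64.9% and 59.98% of the TPM of the 3 targets in mutants 1, 2 and 3, against 36.9%, 47.8% and 53.5% in controls 1, 2 and 3. The mutants lay together and above all controls, at 62.1% ± 2.5 in mutants and 46.1% ± 8.4 in controls (SD, n = 3 each, two-sided exact permutation p = 0.1, the lowest possible). The mean difference of 16.0 percentage points was 11.4 to 19.7 when each library was left out in turn and 11.8 without both libraries numbered 1. The ratio of Hey1 to Hes1 was 1.48, 1.64 and 1.33 in mutants 1, 2 and 3, against 0.545, 0.845 and 1.05 in controls 1, 2 and 3. Hey1 thus exceeded Hes1 in all mutants and in control 3, whereas Hes1 exceeded Hey1 in controls 1 and 2.

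By level, in mutants Hey1 was the highest of the 10 genes (38.4 TPM), above Notch2 (27.2 TPM) with no overlap of the ranges. In controls Notch2 (30.2 TPM), Hes1 (29.0 TPM) and Hey1 (23.4 TPM) came first, and their ranges overlapped from each to the next. Below them in controls stood Jag1 and Notch3, which could not be ordered, then Notch1 and Hey2 with gaps between the ranges. Dll4, Dll1 and Jag2 came last in both genotypes and overlapped there.

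The sum of the endothelial markers in TPM, like Hey1, was higher in all mutants than in any control. Without accession-named features (23.5% of the TPM in mutant 1 and 43.9% in control 2), the sum in mutant 1 fell below that in control 2. It also did so with median-of-ratios scaling. Among controls the sum was highest in control 2, whereas Hey1 was highest in control 3. The part of endothelium in the Hey1 value was examined only as a ratio. The list of 10 (Pecam1, Cdh5, Kdr, Tie1, Tek, Emcn, Erg, Esam, Cldn5 and Flt1, none at 0 in any library) summed to 200, 289 and 203 TPM in mutants 1, 2 and 3, against 110, 166 and 131 TPM in controls 1, 2 and 3. In 5 of the 10 all mutants lay above all controls, beside 6.68% of all genes. An unadjusted limma p of at most 0.05 was reached by 4, all higher in mutants, beside 3.07% of all genes. None of the 10 was called, beside 0.0411% of all genes. Set against this sum, a comparison chosen after seeing the values, Hey1 came to 17.5%, 15.6% and 17.3% in mutants 1, 2 and 3, against 15.2%, 13.5% and 23.8% in controls 1, 2 and 3. All mutants lay above controls 1 and 2 and below control 3, so the groups overlapped through control 3 alone (two-sided exact permutation p = 1). The same ratio was lower in all mutants for Notch2 (mean 12.1% in mutants and 22.6% in controls), Notch3 (6.36% in mutants and 11.8% in controls), Jag1 (4.44% in mutants and 12.3% in controls) and Hes1 (11.5% in mutants and 22.2% in controls), all set against a sum that was itself higher in mutants, and it overlapped for the other 5 genes. Other arterial genes did not all move this way. Of 6 arterial markers Nrp1 was higher and Efnb2 lower in all mutants, beside 6.68% and 1.68% of all genes. The 6 summed to 179, 210 and 173 TPM in mutants 1, 2 and 3, against 179, 182 and 203 TPM in controls 1, 2 and 3. Efnb2 was the most abundant of them (mean 82.1 TPM in mutants and 105 TPM in controls). Gja4 (11.1 TPM in mutants and 4.44 TPM in controls) and Gja5 (30.8 TPM in mutants and 24.1 TPM in controls) had higher means in mutants and overlapped. Cxcr4 and Unc5b had similar means in both genotypes.

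**Figure D4:**
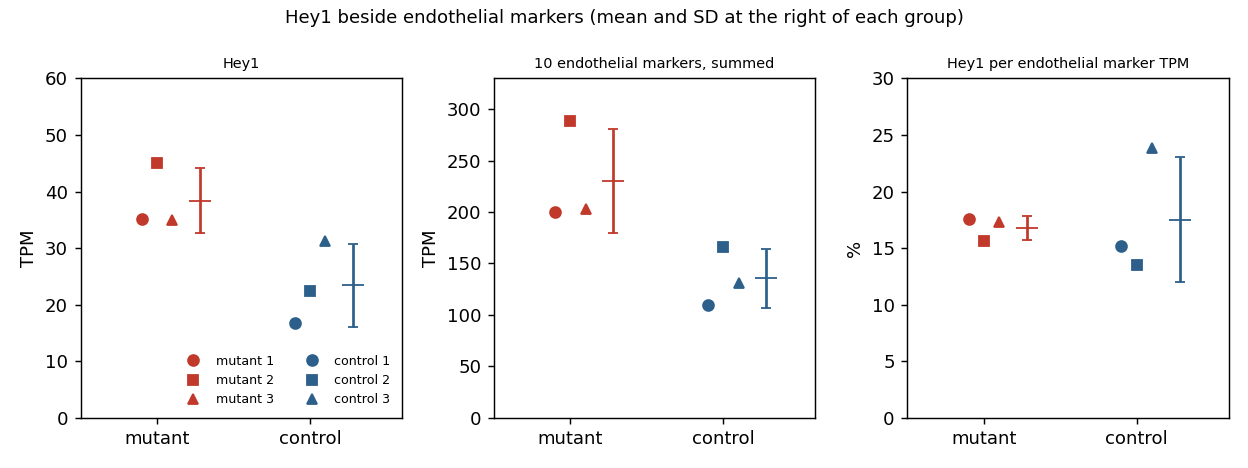
Hey1 (TPM), the summed TPM of 10 endothelial markers, and Hey1 as a percent of that sum, in each library, with mutants at the left and the mean and SD beside each group (n = 3). On the TPM scale shown, Hey1 and the endothelial sum are both higher in all mutants, and their ratio overlaps.

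Heart muscle markers, from a tissue where Hey1 and Hey2 mark the atria and the ventricles, were also higher in mutants 1 and 2. The 7 cardiomyocyte markers summed to 1642, 1203 and 324 TPM in mutants 1, 2 and 3, against 807, 438 and 290 TPM in controls 1, 2 and 3. The groups overlapped. The part of heart tissue in the values of both genes was not tested. Primitive red cell markers ranked as Hey1 did within each genotype but overlapped between genotypes, at 8364, 31243 and 7086 TPM in mutants 1, 2 and 3, against 3255, 6388 and 27058 TPM in controls 1, 2 and 3. Splanchnic mesoderm markers went the other way for 3 of 4 genes (Foxf1, Pdgfra and Osr1), with Foxf1 at 23.7, 4.25 and 21.6 TPM in mutants 1, 2 and 3, against 118, 72.7 and 73.1 TPM in controls 1, 2 and 3. The paper counts Foxf1 and Osr1 among the transcripts regulated by HH and Gli, so their levels cannot measure how much of this tissue was present. The fourth marker, Vim, was higher in all mutants (mean 309 TPM in mutants and 202 TPM in controls).

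The rest of the pathway was examined through 51 further genes, of which 49 were in the table and 43 were tested. None was called, with or without the replicate block, beside 0.0411% and 0.205% of all genes. The median log2 fold change was 0.09. In 2 of the 43 all mutants lay above all controls and in 1 below, beside 6.68% and 1.68% of all genes, so these counts are near the background. An unadjusted limma p of at most 0.05 was reached by 1 of the 43, beside 4.09% of all genes, so this count too is not above the background. The gene was Dlk1, a Delta-like protein without the domain that activates receptors. Dlk1 had 45.0, 34.1 and 40.7 TPM in mutants 1, 2 and 3, against 19.9, 19.0 and 10.6 TPM in controls 1, 2 and 3. The groups were well apart, with a mean 2.42 times as high in mutants and a difference of 1.26 ± 0.28 on the log2 scale, the largest of the 53 pathway genes tested (SE, limma adjusted p = 0.504, or 0.157 with the replicate block).

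Among the other response genes, Heyl, the third Hey repressor, had the highest mean level. It had 4.88, 11.7 and 9.02 TPM in mutants 1, 2 and 3, against 2.24, 10.8 and 7.34 TPM in controls 1, 2 and 3, and overlapped. Nrarp, a feedback inhibitor of Notch that was singled out after its values were seen, had 2.50, 5.04 and 3.4 TPM in mutants 1, 2 and 3, against 1.54, 2.05 and 2.03 TPM in controls 1, 2 and 3. All mutants were higher in TPM, and the log2 fold change was 0.66 ± 0.30 (SE, limma adjusted p = 0.999). Without accession-named features (23.5% of the TPM in mutant 1 and 43.9% in control 2), mutant 1 fell below control 2 and the groups overlapped. Of the 2582 exonic bases of Nrarp, 2051 are shared with the antisense RNA Gm38287. Hes5, a target in neural progenitors that was also singled out afterwards, was listed at 0.27, 2.60 and 0 TPM in mutants 1, 2 and 3 and at 0 in all controls. It was highest in mutant 2, the library with the neural tube markers, and its mean was below the limit for testing.

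The core machinery is given by its range. The 7 genes of the nuclear complex had log2 fold changes between -0.15 and 0.13, and the 8 tested genes of the receptor-cleaving proteases between -0.41 and 0.33. The most abundant of each list were the coactivator Crebbp (126 ± 29 TPM in mutants and 142 ± 39 TPM in controls) and the gamma-secretase subunit Psenen (120 ± 32 TPM in mutants and 122 ± 32 TPM in controls, SD, n = 3 each). The ligand-activating ubiquitin ligase Mib1 stood at 44.7 ± 8.9 TPM in mutants and 43.1 ± 12.4 TPM in controls, and the receptor glucosyltransferase Poglut1 at 41.7 ± 3.8 TPM in mutants and 44.1 ± 10.2 TPM in controls. Of the 13 tested repressors and turnover genes, the corepressor Ncor1 was the most abundant (205 ± 92 TPM in mutants and 190 ± 75 TPM in controls). The corepressor Tle1, singled out after its values were seen, was the only one lower in all mutants (14.5 ± 3.2 TPM in mutants and 23.4 ± 7.3 TPM in controls, log2 fold change -0.63 ± 0.28, limma adjusted p = 0.999).

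Stage was the other axis of the data. In a fit with genotype, the 19-somite libraries were set against the later 4, a contrast that cannot be told apart from the library number. Of the 10 genes 1 was called, Jag1, against 9.41% of all genes, a share at the background. An unadjusted limma p of at most 0.05 was reached by 2 of the 10 (Jag1 and Hey2), against 33.9% of all genes. Jag1 was lower at 19 somites in both genotypes (5.62 TPM against 16.8 and 9.57 TPM in mutants, and 9.91 TPM against 18.7 and 21.8 TPM in controls). Its log2 difference of -1.003 ± 0.24 lay at the fold limit (SE, limma adjusted p = 0.035). The call ended with a pseudocount of 5 (-0.75) and without control 3 (-0.97) or mutant 2 (-0.84). It also ended without control 1 (-1.05, limma adjusted p = 0.270) or mutant 1 (-0.96, limma adjusted p = 0.326), fits that leave 1 library at 19 somites, assumed to vary like the others. Hey2 had a log2 difference of -0.70 ± 0.28 (SE, limma adjusted p = 0.122) and Hey1 one of -0.40 ± 0.21 (SE, limma adjusted p = 0.219), both short of a call. Outside the 10, 4 of the 43 pathway genes tested were called for stage, against 9.41% of all genes, a share at the background. Heyl (log2 difference -1.28 ± 0.27, limma adjusted p = 0.024) and Ncor1 (-1.25 ± 0.14, limma adjusted p = 0.0068) were lower at 19 somites. Hes6 (1.21 ± 0.35, limma adjusted p = 0.055) and Rfng (1.01 ± 0.28, limma adjusted p = 0.048) were higher. Heyl was not called with a pseudocount of 5 (-0.79). With 1 library left at 19 somites, Heyl was not called without control 1 (-0.94) or mutant 1 (-1.61).

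**Figure D5:**
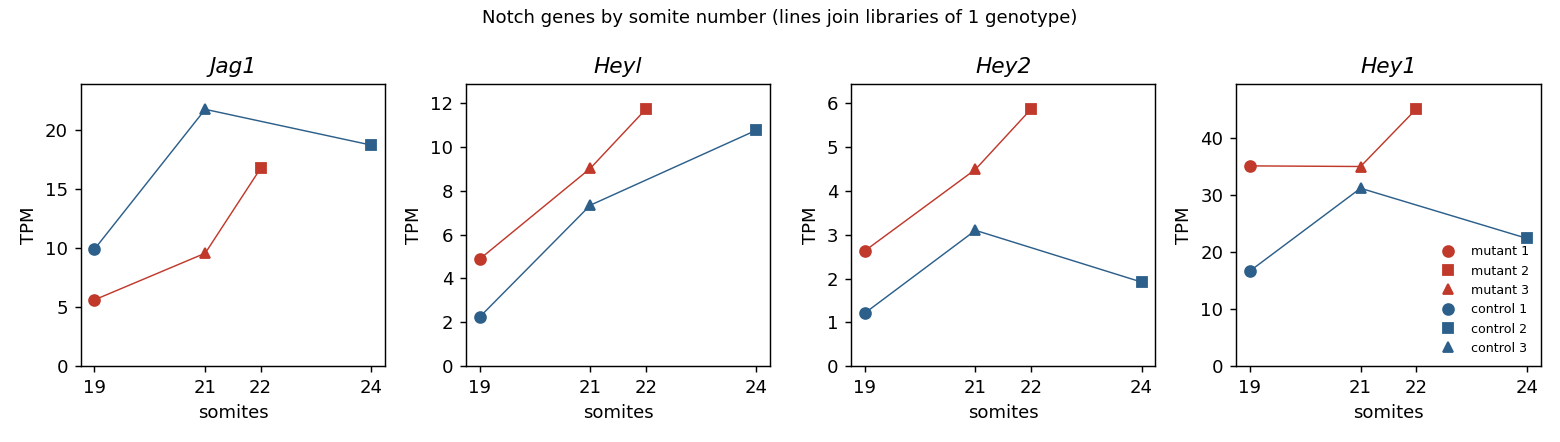
TPM of Jag1, Heyl, Hey2 and Hey1 against somite number, with mutants in red and controls in blue and lines joining the libraries of a genotype. The 19-somite library is the lowest of its genotype for Jag1, Heyl and Hey2, whereas Hey1 is equally high in mutants 1 and 3.

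The genes most like the 3 that varied most were found by the mean absolute difference of centred log2(TPM + 1) values over the 6 libraries, among 9758 named genes for Jag1 and 9759 for Hey2 and Jag2. Nearest to Jag1 were Trps1 (0.15), E330023G01Rik (0.18) and Nhs (0.18). Trps1, a zinc finger repressor, had 5.97, 13.4 and 9.12 TPM in mutants 1, 2 and 3, against 7.94, 14.1 and 17.1 TPM in controls 1, 2 and 3, the same order as Jag1 but for mutant 3 and control 1. Nearest to Hey2 were Slc25a12 (0.09), Nabp1 (0.10) and Plekhg1 (0.12), and nearest to Jag2 were the cyclin Ccnd3 (0.09), Rras (0.10) and Mogat2 (0.12). With 6 libraries and so many genes, likeness of this size describes the libraries only.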

How the data were processed

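Polyadenylated RNA of single foreguts was amplified with a SMART-Seq low input kit and made into Nextera XT libraries, neither of which marks the strand. Per the study's methods the CSBB pipeline aligned reads to mm10 (its aligner, quantifier and annotation: not given in the sources used here) and RUVSeq compared the genotypes, a count model that TPM does not allow. The authors deposited 1 table of TPM, so depth is unknown.

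The 14606 genes averaging 1 TPM or more over the libraries, all 10 Notch genes among them, were fitted as log2(TPM + 1) by limma 3.58.1 (R 4.3.3), with its variance trend, two-sided p-values and Benjamini-Hochberg adjustment over all genes. This scale shrinks the fold changes of weakly expressed genes. Calls needed an adjusted p no larger than 0.1 and a log2 change of 1 or more in either direction. The fit was tested on simulated data. Coordinates are from GENCODE vM21 and promoters from RefSeq.

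The 10 genes, the pathway lists and the marker lists were chosen with earlier results of these data known. All 10 genes are described. Of the further pathway genes, those with an unadjusted p of at most 0.05 and the most abundant of each list are named. For the 3 of the 10 with the largest SD, the 3 most similar genes are named. Labels give both groups the numbers 1, 2 and 3. Libraries of the same number deviated together (correlations of 0.67, 0.37 and 0.15 for numbers 1, 2 and 3, each over 0.1) and were treated as pairs in the blocked fit, although mutant 3 correlated more with control 2 (0.24). What the numbers mark is not stated in the labels. The sample titles of mutant 1 and control 1 begin with the same number, and those of the other pairs do not. The methods call the controls litter mates in one place and take embryos from separate litters in another. Alternatives were other pseudocounts, filters, scalings and thresholds, a somite term, the block, and leaving out libraries.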

Additional observations from a re-analysis of the deposited data

How the results depend on the processing

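None of the 10 genes was called in any of the 17 alternatives in which it was tested (6 were tested with a filter at 5 TPM, and Jag2 was not tested without mutant 2). Of these alternatives 4 (the block, no filter, the 5 TPM filter and the stricter p limit) repeat the fold change by construction. In the other 13, 127 of 129 log2 fold changes of single genes kept their direction. The exceptions were Notch1 without mutant 2 (range over left-out libraries -0.0057 to 0.47) and Notch3 without control 2 (range -0.23 to 0.026). Hey1 ranged from 0.51 to 0.94, and its lowest adjusted p was 0.374. Hey1 per endothelial TPM, added after seeing the data, was 0.960 times the control mean in mutants, against 1.64 times for plain TPM. The median of the Notch genes tested was -0.13 with a filter at 5 TPM, and -0.01 to 0.49 when each library was left out. Jag1, the 1 gene of the 10 called for stage, was not called with a pseudocount of 5, nor without control 3 or mutant 2 (0 called). It was also not called without control 1 or mutant 1, fits that leave 1 library at 19 somites.

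Over all genes, 6 calls became 30 with the replicate block, 27 with the somite term, 16 without accession-named features and 11 with quantile normalization. They became 1 with a filter at 5 TPM, 3 with no filter, 3 under an adjusted p limit of 0.05 and 0 without both libraries numbered 1 (626 with an unadjusted limma p of at most 0.05). Leaving out 1 library gave 0 to 7, with 0 without control 2 or control 3 (445 and 561 with an unadjusted limma p of at most 0.05). The block changed no call of a Notch gene, and in the exact sign-flip test of the 3 pairs the Hey and Jagged shares had p = 0.25, the smallest possible. The median of all genes was 0.11, or near -0.01 with other scalings. Depth is unknown, so its limits cannot be given.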
